A study of Homo sapiens with 4 samples.

Results

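RNA-seq was used to measure 10 genes of DNA methylation and of Polycomb repression in OVCAR3 cells treated with etoposide or with its vehicle. The genes are DNMT1, UHRF1 and HELLS, which maintain DNA methylation through replication, DNMT3A and DNMT3B, which place it anew, TET1 and TET2, which oxidise it, and EZH2, SUZ12 and EED, the core of Polycomb repressive complex 2 (PRC2). They were chosen by gene symbol, as 10 of the 60605 genes in the transcript tables, and the FPKM (mapped fragments per unit of transcript length and of library depth) of all transcripts of a gene was summed in each library. OVCAR3 (NIH-OVCAR3) is an established line of high-grade serous ovarian carcinoma, so the values describe a single line. The cells of both groups were held in nocodazole, a spindle poison, at 100 ng/mL for 16 h, washed and released for 3 h, and then kept for 24 h with 1.7 µM etoposide (2 libraries) or with DMSO alone (2 libraries). Etoposide traps topoisomerase II on DNA and leaves double-strand breaks, and the comparison asks how expression responds to that damage. The labels call the replicates of a group biological and say no more of how the cultures were kept apart.

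DNA methylation sits on cytosines of CpG pairs and is halved at each replication unless it is copied. UHRF1 binds the hemimethylated site behind the fork and marks histone H3 with ubiquitin, DNMT1 is drawn there and methylates the new strand, and HELLS (LSH) is a chromatin remodeller that opens nucleosomes for this step. DNMT3A and DNMT3B methylate CpG sites irrespective of the old strand, and TET enzymes oxidise the methyl group so that it is lost or repaired. PRC2 is a separate silencing system in which EZH2 methylates lysine 27 of histone H3, while SUZ12 and EED are needed for the complex to stand and for its activity. EZH2, DNMT1, UHRF1 and HELLS are known as genes of dividing cells that E2F transcription factors switch on before S phase.

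The promoters of the 10 genes were read for the E2F words TTTCCCGC, TTTCGCGC, TTTGCCGC and TTTGGCGC on both strands, in windows of 300 bases (250 before and 50 after each RefSeq start, GRCh38.p14). A word stood in 3.31% of all 35116 windows and in at least 1 window of 3.99% of 27305 genes. Of the 10 genes, 5 held it, all of which are shown because they span the maintenance trio and the PRC2 core. Each stretch of 130 bases is read 5′ to 3′ on the strand of the gene, with the words in capitals, and no pair of matches shared a base.
DNMT1 (chr19:10194924-10195053, minus strand): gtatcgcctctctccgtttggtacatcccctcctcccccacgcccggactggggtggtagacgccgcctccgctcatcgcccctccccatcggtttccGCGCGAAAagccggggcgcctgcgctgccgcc
UHRF1 (chr19:4909401-4909530, plus strand): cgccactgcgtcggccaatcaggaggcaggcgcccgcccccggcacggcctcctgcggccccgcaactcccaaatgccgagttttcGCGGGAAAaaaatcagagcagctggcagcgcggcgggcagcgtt
HELLS (chr10:94545688-94545817, plus strand): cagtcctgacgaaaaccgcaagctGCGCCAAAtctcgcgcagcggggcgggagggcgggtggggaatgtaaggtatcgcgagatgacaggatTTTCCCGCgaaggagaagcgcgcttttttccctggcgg
EZH2 (chr7:148884262-148884391, minus strand): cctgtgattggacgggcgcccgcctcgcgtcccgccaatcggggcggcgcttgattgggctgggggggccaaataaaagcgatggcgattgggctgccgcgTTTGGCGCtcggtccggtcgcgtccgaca
SUZ12 (chr17:31936787-31936916, plus strand): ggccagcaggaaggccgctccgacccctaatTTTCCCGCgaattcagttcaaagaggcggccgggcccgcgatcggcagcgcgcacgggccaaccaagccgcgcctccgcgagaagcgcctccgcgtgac
The word began 2 bases before the RefSeq start of DNMT1 and 14 bases before that of UHRF1. These starts lie 182 and 71 bases from that of the transcript with most of the FPKM of each gene. HELLS held a pair of words, 76 and 8 bases before its start. In EZH2 the word began at base 2 of the transcribed side, and in SUZ12 it lay 189 bases upstream. No word was found in the windows of DNMT3A, TET1, TET2 and EED, nor in the only window of DNMT3B. That window lies 17428 bases from the start of the transcript that carried most DNMT3B FPKM, so the latter start was not read. These matches are descriptions of letters and not of binding. Of the S phase markers described further on, 17 of the 30 with a window held a word, compared with 3 of the 45 G2 and M phase markers.

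The libraries corresponded to 64473397 and 66500749 read pairs in DMSO and 47687126 and 58513480 in etoposide, as implied by coverage and FPKM. DMSO replicate 1 stood apart from the other 3. The difference between the DMSO replicates (replicate 2 minus replicate 1, log2) followed transcript length with a Spearman correlation of 0.317 and GC content with -0.340 across 22185 genes, against 0.0173 and -0.0164 between the etoposide replicates. Genes are not independent replicates, so these are descriptions. Because the 10 genes include very long transcripts, the difference of each of the 10 is given with this library and without it. The ovarian epithelial markers matched the label, with all 12 at or above an FPKM of 1 in every library, PAX8 at 214 to 258 FPKM and WT1 at 22.0 to 23.7. Their summed FPKM was 2695 to 3041 in DMSO and 2109 to 2179.5 in etoposide, with KRT8 and KRT18 making up most of the gap. Of the 12 markers 10 were lower in etoposide, and in 8 both etoposide libraries lay below both DMSO libraries, which 19.0% of all genes did. By limma 6 were lower at an unadjusted p under 0.05, where 4.85% of all genes were. Summed over 8 leukocyte markers the FPKM was 1.47 to 1.82 in DMSO and 1.30 to 1.38 in etoposide, and CD3D and MS4A1 were listed at 0 in all 4 libraries. Over 8 fibroblast markers it was 7.31 to 7.51 and 8.49 to 8.73, of which COL1A1 gave 4.36 and 4.42 in DMSO and 6.11 and 5.80 in etoposide, while DCN and COL3A1 stayed near 0. Of the 5 fibroblast markers with enough signal to test, 2 were higher and 3 lower in etoposide. Over 6 endothelial markers the summed FPKM was 4.69 to 5.81 in DMSO and 5.31 to 5.42 in etoposide. The part of these shifts in the results was not tested.

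All 10 genes had a positive log2 fold change (etoposide minus DMSO), where 56.2% of all 22185 genes tested did. In 6 of them (DNMT1, UHRF1, HELLS, DNMT3A, SUZ12 and EED) both etoposide libraries lay above both DMSO libraries, which 28.9% of all genes did. With each library corrected for length and GC content, 9 of the 10 stayed positive (all but EZH2), where 49.3% of all genes were. The median over the 10 was 0.25 on the log2 scale, beside 0.036 over all genes tested. Without DMSO replicate 1 it was 0.082, with 8 of the 10 positive, beside a median of 0.033 over all genes. After the length and GC correction it was 0.12, beside -0.0033 over all genes. None of the 10 passed an adjusted p of 0.05 in limma with Benjamini-Hochberg adjustment over all genes, and the share over all genes was 0.0% as well. At an unadjusted p under 0.05, 2 of the 10 were higher (DNMT1 and HELLS), where 7.06% of all genes were. With 2 libraries a group the smallest two-sided p that an exact permutation of 1 gene can give is 0.333, so the design gives the size of each difference better than its certainty.

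**Figure D1:**
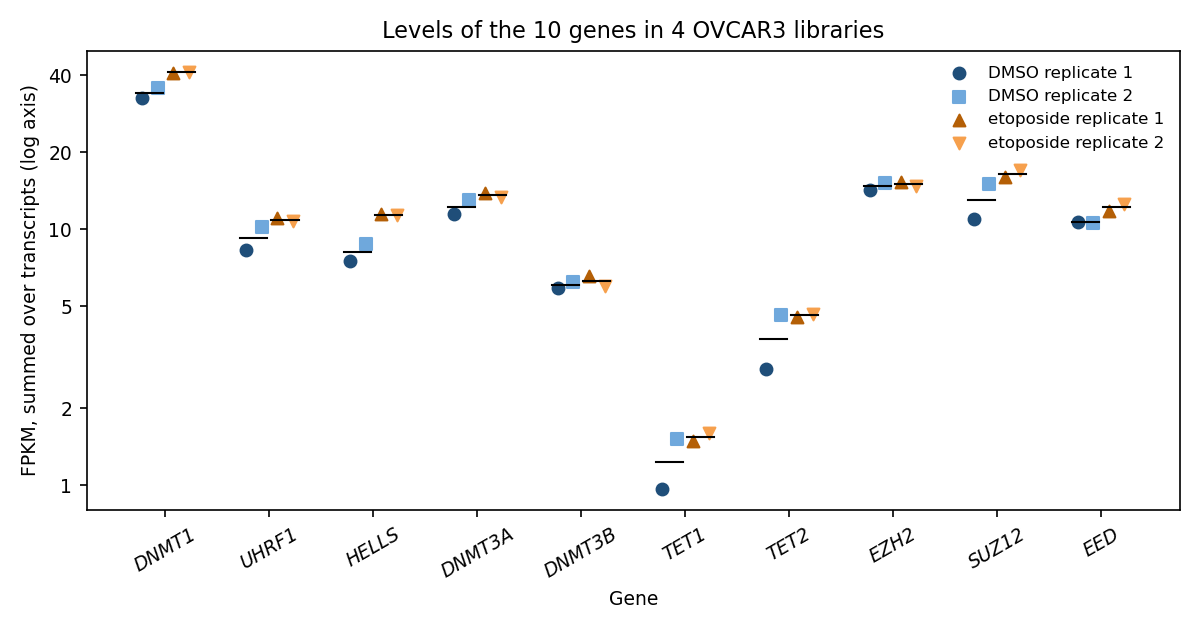
FPKM (log axis) of each gene in the 4 libraries, with circles and squares for DMSO replicates 1 and 2, triangles pointing up and down for etoposide replicates 1 and 2, and bars for group means. DNMT1 lies highest, between 32.7 and 41.3 FPKM, and TET1 lowest, between 0.966 and 1.60. DMSO replicate 1 stands below the other 3 libraries in every gene but EED, and furthest below in TET1, TET2 and SUZ12.

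FPKM is per length, so levels of different genes can be set side by side. DNMT1 was the highest of the 10, with a mean of 37.6 FPKM over the 4 libraries, and its range did not touch that of the next gene. EZH2 (14.9), SUZ12 (14.8), DNMT3A (12.9), EED (11.4), UHRF1 (10.1) and HELLS (9.79) followed, each with a range that overlapped that of its neighbour. DNMT3B (6.18), TET2 (4.17) and TET1 (1.39) came last, and their ranges were separate. Within each library DNMT1 stood 3.49 to 3.93 times above UHRF1, its recruiting partner. DNMT3B stood at 0.448 to 0.514 of DNMT3A. EZH2 exceeded its paralog EZH1, the catalytic subunit typical of resting cells, by 3.80 to 4.85 times, and by 2.19 to 3.27 times on the last 500 bases of each transcript. TET2 was 2.92 to 3.06 times TET1 in all 4 libraries. TET3, the other member of that family and named here after its values were seen, was 1.57 to 1.74 times TET2.

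Among the maintenance genes, HELLS and DNMT1 had the smallest p-values of the 10. HELLS measured 7.53 and 8.78 FPKM in DMSO and 11.5 and 11.3 in etoposide. Both etoposide values stood above both DMSO values, with a gap larger than the spread inside either group. The mean was 39.96% higher, a log2 fold change of 0.48 (SE 0.107, limma adjusted p = 0.298). DNMT1, the maintenance methyltransferase itself, gave 32.7 and 35.6 FPKM in DMSO and 40.9 and 41.3 in etoposide. The groups did not overlap, and the etoposide replicates lay closer together than the DMSO replicates. Its mean was 20.4% higher, at 0.27 on the log2 scale (SE 0.0785, limma adjusted p = 0.347). UHRF1 gave 8.33 and 10.2 FPKM in DMSO and 11.0 and 10.7 in etoposide. Here the step between the DMSO replicates was larger than that from DMSO replicate 2 to either etoposide library. Its log2 fold change was 0.24 (SE 0.120, limma adjusted p = 0.457).

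Without DMSO replicate 1 the log2 fold change was 0.37 for HELLS and 0.21 for DNMT1, both again at an unadjusted p under 0.05 (8.04% of all genes were so and higher), while UHRF1 came to 0.096. Correcting each library for transcript length and GC content left 0.31 for HELLS, 0.24 for DNMT1 and 0.24 for UHRF1, by limma in each case. There 6.88% of all genes were higher at an unadjusted p under 0.05. Adjusted p-values under that correction were 0.114, 0.136 and 0.383. Without DMSO replicate 2, which leaves the library that stands apart as the sole control, limma gave adjusted p-values of 0.0333 for HELLS, 0.0377 for DNMT1 and 0.0442 for UHRF1, and 6.06% of all genes were called higher. At an unadjusted p under 0.05 that fit had 8 of the 10 higher, where 17.9% of all genes were.

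Partners of maintenance were read as a list of 10 genes, of which 9 had enough signal to be tested singly. Of these, 8 were higher and 1 was lower in etoposide, 4 were higher at an unadjusted p under 0.05 (7.06% of all genes were), and none passed the adjusted threshold. The median log2 fold change was 0.15, beside 0.036 over all genes. PCNA, the sliding clamp that carries DNMT1 at the fork, gave 43.6 and 43.8 FPKM in DMSO and 56.8 and 55.9 in etoposide (log2 fold change 0.37, SE 0.0687, limma adjusted p = 0.269). This gene barely differed inside either group, and it is also among the S phase markers described further on. CDCA7L, a relative of the HELLS activator CDCA7, was 0.33 higher on the log2 scale (adjusted p = 0.311) and the ubiquitin ligase RNF168 was 0.46 higher (adjusted p = 0.321), both with groups that did not overlap. DNMT3L, the catalytically inactive germ cell cofactor of the de novo enzymes, stayed under 0.1 FPKM in every library and was not tested.

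The de novo enzymes differed less. DNMT3A gave 11.5 and 12.999 FPKM in DMSO and 13.9 and 13.4 in etoposide, groups that were just apart. Its log2 fold change was 0.16 (SE 0.0978, limma adjusted p = 0.513) and 0.069 without DMSO replicate 1. When estimated fragments were tested in place of FPKM the value was 0.0035. Longer transcripts count for more on that scale. DNMT3B gave 5.88 and 6.23 in DMSO and 6.59 and 6.01 in etoposide. The groups overlapped, the log2 fold change was 0.055 (SE 0.103, limma adjusted p = 0.842) and 0.013 without DMSO replicate 1, and the sign turned to -0.015 when libraries were scaled to a common median.

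DNMT3A is made in a long form of 912 residues from an upstream start and in short coding forms of 723 and 689 residues from a start inside the gene (5′ ends at chr2:25252132-25252311, minus strand, GRCh38). As apportioned to transcripts, the long form had 6.53 and 7.24 FPKM in DMSO and 6.18 and 5.97 in etoposide. The forms with the inner start had 4.25 and 4.76 in DMSO and 6.78 and 6.05 in etoposide. Their share of the FPKM of the gene was thus 37.1% and 36.6% in DMSO and 48.9% and 45.1% in etoposide, and the groups did not overlap. The transcript with the smallest p among them (ENST00000683760, 689 residues) was 0.86 higher on the log2 scale (SE 0.203, limma adjusted p = 0.696 over 71340 transcripts).

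Coverage of the exon parts that tell the forms apart was then read, after these values had been seen. It was divided by the mapped bases of each library and is here called depth-scaled coverage. The first exons found only in the inner-start forms (407 bases) had 2.02 and 1.83 in DMSO and 2.05 and 2.095 in etoposide. The 1077 bases before the inner start, present only in the long form among these, had 2.93 and 3.66 in DMSO and 4.31 and 3.25 in etoposide, and the groups overlapped. The 3403 shared bases had 11.8 and 13.9 in DMSO and 14.2 and 14.2 in etoposide. Only the 5121 bases of the last exon that belong to the long form were lower, at 6.36 and 6.52 in DMSO and 5.41 and 5.42 in etoposide. So the difference between forms in the transcript table stood beside a difference at the 3′ end of the long form, and the 5′ exons of the long form showed none in the same direction.

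**Figure D2:**
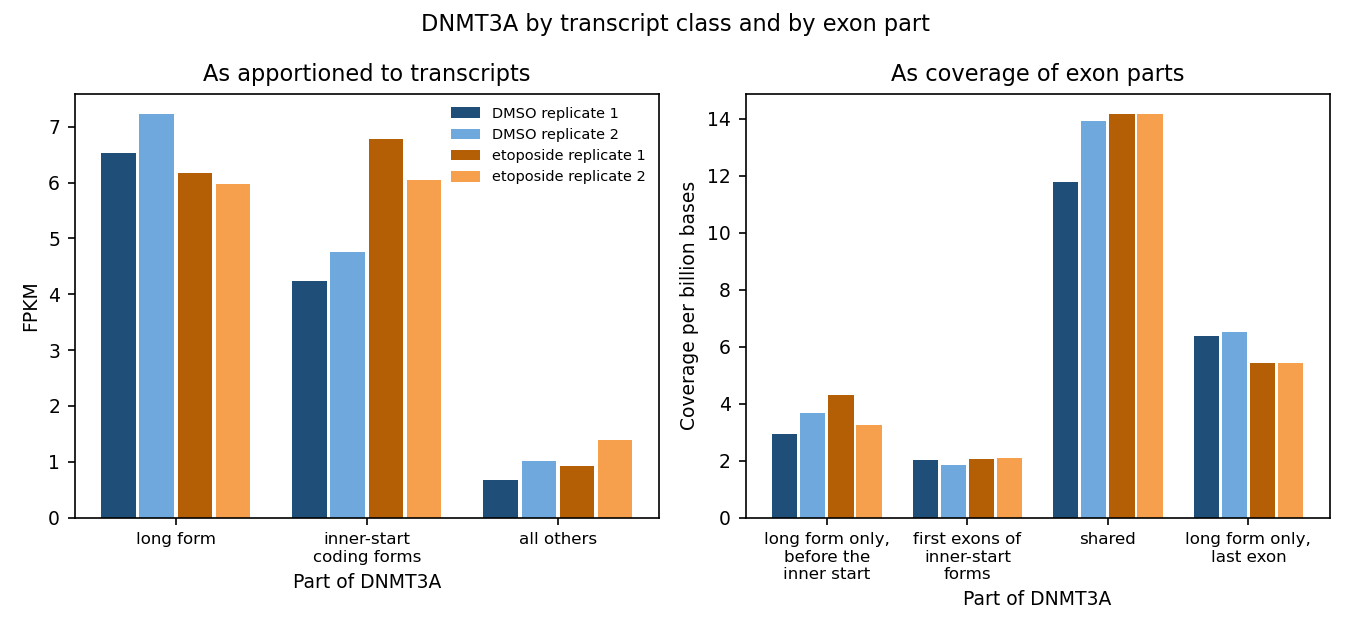
Left, FPKM apportioned to the long form of DNMT3A, to coding forms with the inner start and to all others. Right, depth-scaled coverage of the exon parts that separate these forms, with bars for each of the 4 libraries. The inner-start forms are higher in etoposide on the left, at 6.78 and 6.05 FPKM, while their own first exons on the right stay at 1.83 to 2.095 in all libraries.

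DNMT3B FPKM was carried by 3 coding transcripts. The form of 833 residues had 2.43 and 2.79 FPKM in DMSO and 4.23 and 2.48 in etoposide. The form of 770 residues, of the length of the catalytically inactive splice form DNMT3B3, had 2.41 and 1.79 in DMSO and 1.91 and 1.94 in etoposide. The full-length form of 853 residues had 1.03 and 1.60 in DMSO and 0.391 and 1.59 in etoposide. For none of the 3 did the groups stand apart.

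The TET genes showed how far a single library can set a difference. TET1 gave 0.966 and 1.51 FPKM in DMSO and 1.49 and 1.60 in etoposide. TET2 gave 2.85 and 4.62 in DMSO and 4.55 and 4.67 in etoposide. In both genes DMSO replicate 1 was low and the other 3 libraries lay close together. The log2 fold changes of 0.33 (TET1, SE 0.221, limma adjusted p = 0.548) and 0.33 (TET2, SE 0.222, limma adjusted p = 0.541) became 0.029 and -0.0046 without DMSO replicate 1. With the length and GC correction they were 0.094 and 0.093. Without DMSO replicate 2, TET2 stood at 0.67 with an adjusted p of 0.0346 by limma. TET3 gave 4.98 and 7.27 FPKM in DMSO and 7.46 and 7.53 in etoposide, with DMSO replicate 1 again low but with groups that did not overlap, and its log2 fold change of 0.31 became 0.044 without DMSO replicate 1. These are long messages, with a mean transcript length weighted by FPKM of 9612 bases for TET1 and 9324 for TET2. It was 1862 for EED, in which the DMSO replicates differed least in FPKM (10.7 and 10.6). Between these lengths the order was not kept. DMSO replicate 2 was 1.14 times replicate 1 in DNMT3A (6307 bases), 1.09 times in DNMT1 (5270) and 1.36 times in SUZ12 (4446).

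Of 7 genes that oxidise or remove methylcytosine or make the cofactor for it, TET3 included, 4 were higher and 3 lower in etoposide. IDH1, which makes the 2-oxoglutarate that TET enzymes consume, gave 42.1 and 44.4 FPKM in DMSO and 34.9 and 36.1 in etoposide (log2 fold change -0.28, SE 0.0744, limma adjusted p = 0.334). Without DMSO replicate 1 it stood at -0.32. UHRF2, a paralog of UHRF1 that also binds hydroxymethylated sites, was 0.32 higher (adjusted p = 0.345), and OGT, a sugar transferase that binds TET proteins, was 0.17 higher (adjusted p = 0.474) and 0.00040 on the last 500 bases.

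**Figure D3:**
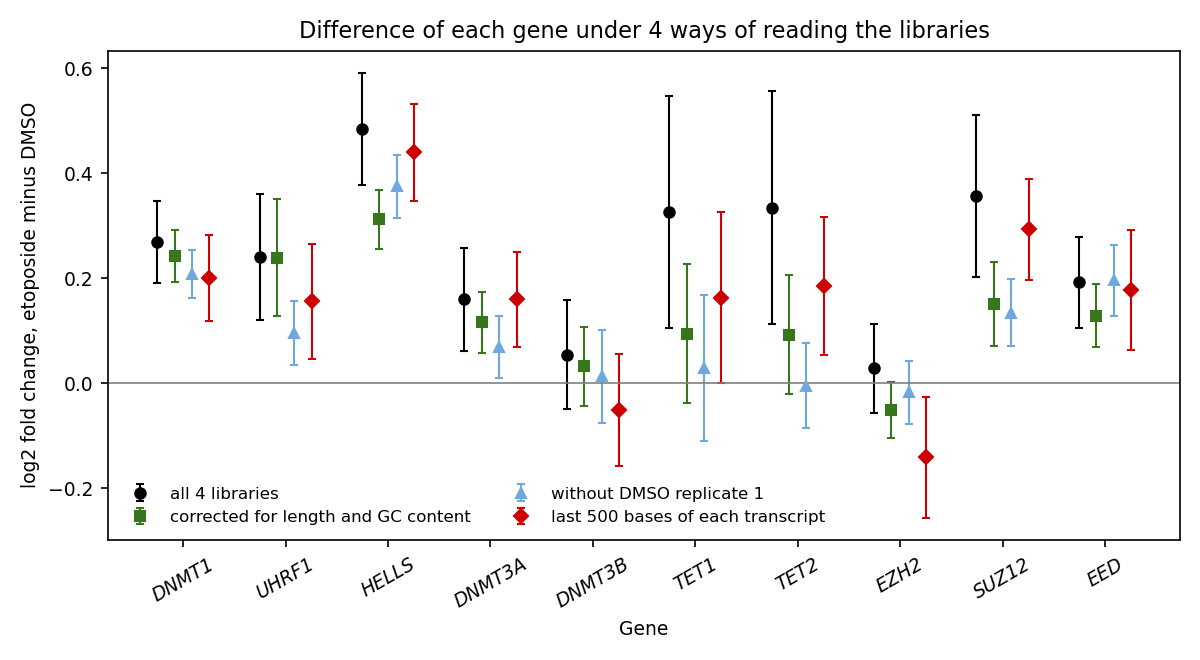
Log2 fold change (etoposide minus DMSO) of each gene with its standard error, from all 4 libraries (circles), after the length and GC correction (squares), without DMSO replicate 1 (triangles) and on the last 500 bases of each transcript (diamonds). For the diamonds coverage is a mean per exon, also where the last exon is longer than 500 bases. HELLS and DNMT1 stay above 0 throughout, between 0.31 and 0.48 and between 0.20 and 0.27, while TET2 and EZH2 fall below 0 and TET1 comes to 0.029 without DMSO replicate 1.

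The 3 genes of the PRC2 core gave unlike values. EZH2, the catalytic subunit, gave 14.3 and 15.2 FPKM in DMSO and 15.3 and 14.7 in etoposide. The groups overlapped and the log2 fold change was 0.029 (SE 0.0852, limma adjusted p = 0.906). It became -0.051 after the length and GC correction, where both etoposide libraries lay below both DMSO libraries. It was -0.017 without DMSO replicate 1 and -0.041 with a common median. SUZ12 gave 11.0 and 15.0 FPKM in DMSO and 16.0 and 17.0 in etoposide. The groups were apart by about 1 FPKM, a smaller step than the one between the DMSO replicates. Its log2 fold change of 0.36 (SE 0.154, limma adjusted p = 0.427) came to 0.13 without DMSO replicate 1 and to 0.15 after the correction, and to 0.58 without DMSO replicate 2 (adjusted p = 0.0339). EED gave 10.7 and 10.6 in DMSO and 11.8 and 12.5 in etoposide. Its log2 fold change was 0.19 (SE 0.0865, limma adjusted p = 0.435) and stayed at 0.20 without DMSO replicate 1 (adjusted p = 0.332).

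Within a library the ratio of EZH2 to SUZ12 was 1.30 and 1.01 in DMSO and 0.957 and 0.866 in etoposide, and that of EZH2 to EED lay between 1.18 and 1.43. SUZ12 has a near copy, SUZ12P1, a transcribed pseudogene, which was listed at 15.3 and 15.4 FPKM in DMSO and 16.9 and 17.4 in etoposide. Reads can be split between such copies, so the level of SUZ12 is uncertain to that extent. The pseudogene did not show the gap between the DMSO replicates that SUZ12 had.

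Of 10 other PRC2 genes 9 were tested, and 6 were higher and 3 lower. Their median was 0.15 on the log2 scale. RBBP4, a histone-binding subunit shared with chromatin assembly factor 1, gave 18.6 and 21.3 FPKM in DMSO and 25.0 and 23.4 in etoposide (log2 fold change 0.28, SE 0.0981, limma adjusted p = 0.390), and 0.079 after the correction. MTF2, which targets PRC2 to CpG islands, was 0.26 higher (adjusted p = 0.435) and RBBP7, the paralog of RBBP4, 0.14 higher (adjusted p = 0.477). Of 25 genes of PRC1, which ubiquitinates histone H2A, 20 were higher and 5 lower, with 4 and 1 at an unadjusted p under 0.05, beside 7.06% and 4.85% of all genes. The median was 0.087. PCGF6, a subunit of a variant PRC1, was 0.39 higher (adjusted p = 0.342), and SCML1, a Polycomb relative at 1.23 to 2.07 FPKM, 0.49 higher (adjusted p = 0.386). E2F6, the repressive E2F of the same variant complex, gave 8.09 and 9.07 FPKM in DMSO and 7.12 and 6.84 in etoposide, a log2 fold change of -0.29 (adjusted p = 0.391) and of -0.37 without DMSO replicate 1.

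Coverage along the message was examined because DMSO replicate 1 differed by length. Over the 10 genes, the ratio of DMSO replicate 2 to DMSO replicate 1 had a median of 1.35 in the first of 4 equal parts of the transcript that carried most FPKM, 1.32 in the next, 1.04 in the one after and 0.989 in the last. It was above 1 in 10, 10, 7 and 4 of the genes. Between the etoposide replicates the 4 medians lay between 0.961 and 1.06. DMSO replicate 1 was thus low toward the 5′ end and level with its partner at the 3′ end. In TET2 the ratio was 2.48 in the first part and 1.21 in the last, and in TET1 2.69 and 1.25. In SUZ12 the first exon (514 bases) had a coverage of 2.27 and 3.88 in DMSO and 4.01 and 3.91 in etoposide, whereas the last exon (2381 bases) had 10.9 and 10.4 in DMSO and 12.7 and 12.9 in etoposide. Coverage is given per exon, so parts that fall inside a long last exon share a value.

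**Figure D4:**
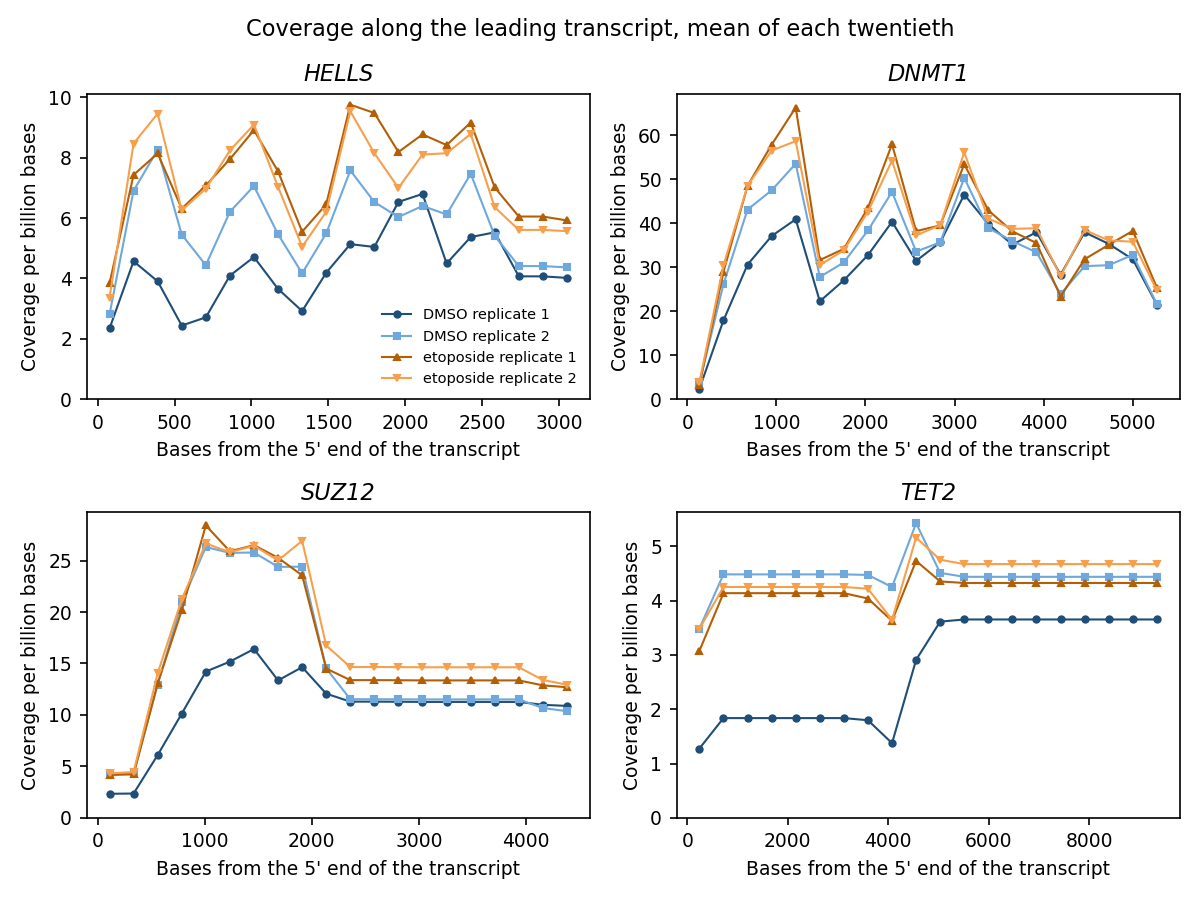
Depth-scaled coverage along the leading transcript of HELLS, DNMT1, SUZ12 and TET2, averaged over 20 equal parts, against distance in bases from the 5′ end, with a line for each library. DMSO replicate 1 (dark blue) runs below the other 3 at the 5′ side and joins DMSO replicate 2 toward the 3′ end in SUZ12. In DNMT1 it rises above DMSO replicate 2, and the groups overlap in the last of 4 parts. The values there are 31.0 and 27.8 in DMSO and 30.8 and 32.6 in etoposide. HELLS in etoposide stays above both DMSO libraries in that part, at 6.84 and 6.38 against 4.61 and 5.21.

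The 3′ ends were therefore compared, as an alternative chosen after seeing the data. Coverage is given per exon, so a last exon longer than 500 bases entered with the mean of the whole exon. That exon has 3680 bases in TET1 and 2381 in SUZ12, so for such genes the values reach beyond the last 500 bases. On the last 500 bases of each transcript HELLS measured 7.81 and 7.94 in DMSO and 10.7 and 10.7 in etoposide, 36.1% higher, and the DMSO replicates now lay close together. DNMT1 measured 27.6 and 27.2 in DMSO and 31.9 and 31.2 in etoposide, 15.0% higher. SUZ12 measured 11.3 and 11.5 in DMSO and 13.4 and 14.7 in etoposide, 22.8% higher, so its groups stood further apart than its DMSO replicates did. UHRF1 (8.72 and 10.1, then 10.3 and 10.6), DNMT3A (12.5 and 13.2, then 14.6 and 14.2), EED (9.15 and 7.78, then 9.39 and 9.72) and TET2 (3.81 and 4.64, then 4.67 and 4.92) were also higher in both etoposide libraries. TET1 (1.44 and 1.80, then 1.74 and 1.89) overlapped, as did EZH2 (14.8 and 12.8, then 11.7 and 13.2) and DNMT3B (7.63 and 6.88, then 7.20 and 6.79). Thus 7 of the 10 were apart and higher, where 24.8% of 21933 genes were. HELLS, SUZ12 and DNMT1 were higher at an unadjusted p under 0.05, where 6.16% of genes were, and the limma adjusted p-values were 0.262, 0.363 and 0.423. On these bases the difference between the DMSO replicates still followed length (Spearman 0.171) and GC content (-0.270) across genes.

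Single transcripts were less steady than their genes. Of 71 transcripts of the 10 genes that had enough signal, 4 reached an unadjusted p under 0.05 (5.78% of all 71340 transcripts did) and none passed the adjusted threshold, as over all transcripts (0.0%). DNMT1 has 52 listed transcripts that share most of their exons, and the share of the leading one (ENST00000340748, 1616 residues) was 12.3% and 72.1% in DMSO and 10.4% and 1.70% in etoposide. The canonical DNMT1 transcript (ENST00000359526, 1632 residues) had 3.57 and 1.96 FPKM in DMSO and 10.8 and 13.2 in etoposide (limma adjusted p = 0.534). Over all transcripts annotated as protein-coding, however, the share of DNMT1 FPKM was 67.3% and 80.5% in DMSO and 39.6% and 42.7% in etoposide. The FPKM apportioned to them was thus lower in etoposide, while the sum over the gene was higher. The rest went to transcripts annotated as retained introns or for nonsense-mediated decay, and the latter have an annotated reading frame. A transcript of HELLS (ENST00000394045, 740 residues) had 0.544 and 0.744 FPKM in DMSO and was listed at 0 in both etoposide libraries. For EED a transcript of 361 residues (ENST00000528180) had 0.221 and 0.387 in DMSO and 1.54 and 0.962 in etoposide. In EZH2 the share of the leading transcript ran from 9.37% to 65.0%, whereas in SUZ12 a single transcript held 88.1% to 96.2% in every library. Apportioning among near-identical transcripts is an estimate, so sums over a gene were used throughout.

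Other genes share sequence positions with some of the 10. COX20P1, a processed pseudogene that overlaps TET1 on the same strand, had 3.33 and 2.01 FPKM in DMSO and 2.23 and 2.06 in etoposide, above TET1 in all 4 libraries. S1PR2, on the strand of DNMT1, had 2.92 to 3.17 FPKM. TBC1D12, which overlaps HELLS on the same strand, had 1.06 and 1.25 in DMSO and 1.26 and 1.35 in etoposide, and a lncRNA there (ENSG00000244332) had 1.03 and 2.52 in DMSO and 3.12 and 2.14 in etoposide. The counting stated no strand.

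Cell cycle genes were read in the same comparison. Of 41 S phase markers (a common list, with HELLS and UHRF1 taken out), 40 were higher and 1 was lower in etoposide, 37 had groups that did not overlap and 30 were higher at an unadjusted p under 0.05, with a median log2 fold change of 0.31. Over all genes those shares were 28.9% and 7.06%. Their summed FPKM was 782 and 847 in DMSO and 1003 and 999.6 in etoposide. CDC6, which loads the replicative helicase, gave 6.66 and 7.47 FPKM in DMSO and 10.8 and 10.7 in etoposide (log2 fold change 0.60, limma adjusted p = 0.267), and DSCC1, a cohesion factor of the fork, was 0.46 higher (adjusted p = 0.274). Without DMSO replicate 1, 40 of the 41 were again higher, 29 of them at an unadjusted p under 0.05 (8.04% of all genes were). None passed the adjusted threshold, and a larger share of cells in S phase and more of these RNAs per cell cannot be told apart in bulk RNA.

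Of 54 G2 and M phase markers, 41 were lower and 13 higher, 27 were apart and lower (19.0% of all genes were) and 21 were lower at an unadjusted p under 0.05 (4.85% of all genes were), with a median of -0.13, or -0.22 without DMSO replicate 1. AURKA, a mitotic kinase, gave 63.2 and 60.8 FPKM in DMSO and 43.8 and 42.5 in etoposide (log2 fold change -0.52, limma adjusted p = 0.217). CDC20, an activator of the anaphase-promoting complex, stood at -0.54 (adjusted p = 0.258) and the spindle protein PSRC1 at -0.62 (adjusted p = 0.217). After the length and GC correction 49 of the 54 were lower, 36 of them at an unadjusted p under 0.05 (8.32% of all genes were). HELLS and DNMT1 thus differed in the direction of the S phase markers, and EZH2, itself a gene of dividing cells, lay near 0 between the lists. The part of the cell cycle in the differences of the 10 genes was not tested.

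**Figure D5:**
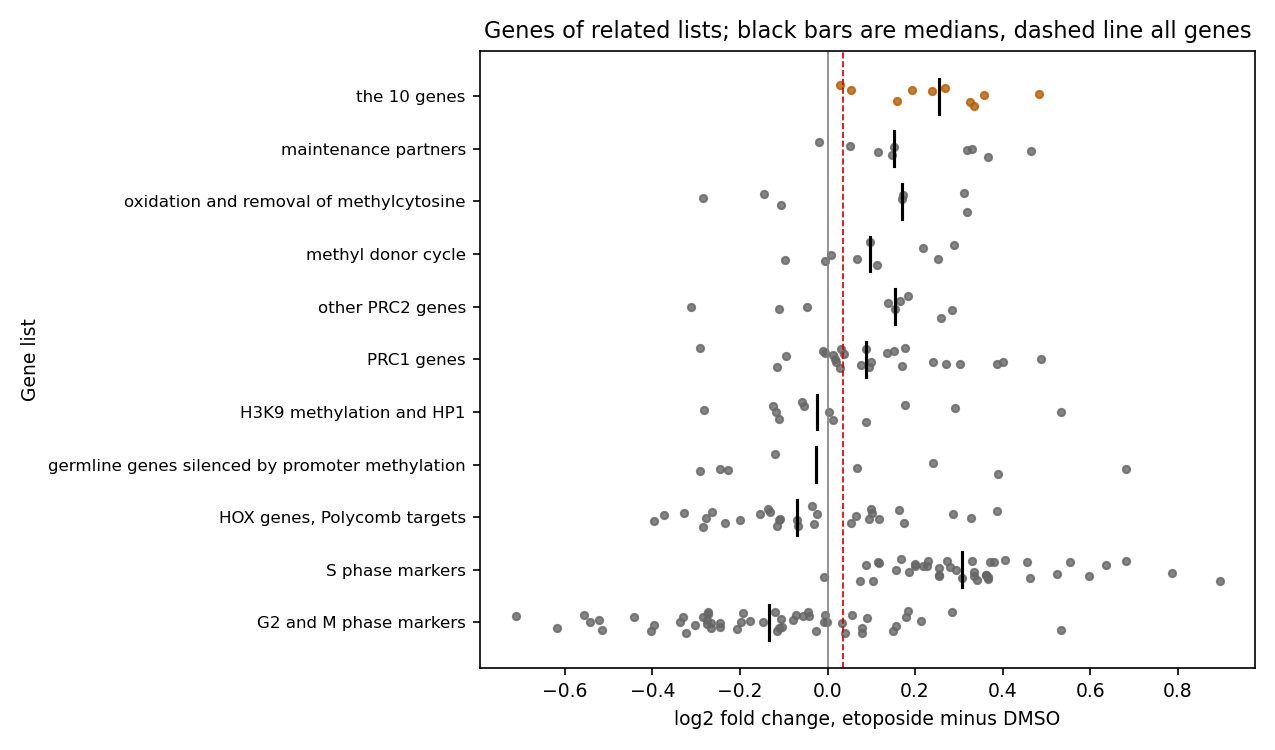
Log2 fold change (etoposide minus DMSO) of each tested gene in the 10 genes (top) and in related lists, with a black bar for each median and a dashed line for the median of all genes tested (0.036). The medians shown are 0.25 for the 10 genes, 0.31 for the S phase markers, -0.13 for the G2 and M phase markers and -0.069 for the HOX genes. Without DMSO replicate 1, which is included here, the first 3 are 0.082, 0.23 and -0.22.

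Genes that these systems are known to silence were examined last. Of 20 germline genes whose promoters are methylated in somatic cells, 8 were tested, 11 stayed under 0.1 FPKM throughout and 5 of these were listed at 0 in all libraries. Among those tested, 4 were higher and 4 lower, none of them at an unadjusted p under 0.05, and the median was -0.026, or -0.044 without DMSO replicate 1. XAGE1B, the highest, gave 5.83 and 5.68 FPKM in DMSO and 4.997 and 5.61 in etoposide, SSX1 gave 2.32 and 2.18 and then 2.41 and 2.96, and MAGEC2 gave 1.39 and 1.68 and then 1.46 and 1.14. GAGE1, part of a family of near copies and so uncertain, had 1.92 FPKM in etoposide replicate 2 and 0.599 to 0.761 elsewhere. MAGEA3 stayed at 0.099 to 0.215.

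Of 39 HOX genes, classic Polycomb targets, 30 were tested and 18 stood at or above 1 FPKM in every library. In etoposide 11 were higher and 19 lower (median -0.069), and 2 were lower at an unadjusted p under 0.05, where 4.85% of all genes were. HOXB2 gave 3.44 and 3.29 FPKM in DMSO and 2.73 and 2.34 in etoposide (log2 fold change -0.40, limma adjusted p = 0.373), and HOXD8 gave 7.54 and 9.26 and then 6.97 and 5.93 (-0.37, adjusted p = 0.401). HOXA5, the highest, gave 23.4 and 21.1 in DMSO and 20.4 and 20.2 in etoposide, and HOXA3 gave 20.5 and 21.0 and then 18.6 and 18.7. HOXC8, at 0.475 to 0.698 FPKM, was 0.39 higher (adjusted p = 0.445). Of 6 genes that remove the marks of Polycomb complexes, 3 of the 5 tested were higher and 2 lower, none at an unadjusted p under 0.05, with KDM6A, an H3K27 demethylase, at 2.83 and 3.77 FPKM in DMSO and 4.09 and 3.74 in etoposide.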

How the data were processed

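RNA was sequenced from 4 libraries of OVCAR3 cells, 2 per group, with paired reads of 100 bases. Per the file headers and the study's methods, the authors aligned reads with HISAT2 to GRCh38 and ran StringTie 2.1.7 on the Ensembl 104 annotation without assembling new transcripts and without a strand setting. The deposited transcript tables give coverage, FPKM and TPM for 236853 transcripts of 60605 genes (no counts). The authors' own DESeq2 test used counts that were not used here.

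FPKM was summed per gene, and log2(FPKM + 0.1) of the 22185 genes with a mean of at least 0.1 FPKM was tested with limma 3.58.1 (R 4.3.3; trend and robust moderation, group only), with Benjamini-Hochberg adjustment over all genes. Fold changes on this scale understate those of low genes. Transcripts were tested likewise. The correction for length and GC content subtracted from each library a loess surface (span 0.3) of its deviation from the mean of all libraries on both. Coverage came from exon lines, divided by the mapped bases that coverage and FPKM imply. Depth sets the precision of low genes, and no counting interval was computed. The fit was also run on simulated data with known changes. At an adjusted p under 0.05 it recovered 56.3% of changes of 1.5-fold and 83.2% of those of 2-fold. In that simulation no library stood apart as DMSO replicate 1 did. Each gene had the spread fitted for its level, without variation from gene to gene, so the shares recovered can be too high. The smallest change simulated, 1.5-fold, was larger than the largest difference of the 10 genes over all 4 libraries (HELLS, 39.96%).

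The 10 genes and all lists were chosen with earlier results of these data known. Named genes are the 10, the 3 with the smallest p in each list, and, for the germline, HOX and cell type lists, the 3 with the highest mean; others are said to have been chosen after their values were seen, or complete a check of markers or overlapping genes. Alternatives comprised other pseudocounts (0.01 and 1), filters, TPM, median scaling, voom on estimated fragments, a replicate block and leaving out each library. The last 500 bases and the leave-one-out fits with correction were added after seeing the data. Gene types, protein lengths and lacking symbols came from GENCODE release 44, in which 60463 gene IDs matched, and promoters from RefSeq.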

Additional observations from a re-analysis of the deposited data

How the results depend on the processing

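With 2 libraries a group, no gene passed the adjusted threshold under the design used (limma), while 2643 had an unadjusted p under 0.05. The count of genes at an adjusted p under 0.05 became 1 with voom, 6 with the correction for length and GC content, 2 on the last 500 bases, 5 to 1934 when a library was left out (1934 without DMSO replicate 2) and 6, 0, 13 and 0 when that was combined with the correction. Of the 10 genes, the number higher at an unadjusted p under 0.05 was 2 as reported, 4 with voom, 1 without trend or robust moderation, 1 to 8 with a library left out and 2, 6, 2 and 2 with the correction as well. Those at an adjusted p under 0.05 numbered 0 as reported and 0 to 5 with a library left out, the 5 being without DMSO replicate 2. The median of the 10 was 0.25 as reported, 0.12 with the correction, also with a replicate block, 0.17 on the last 500 bases, 0.082 to 0.36 with a library left out and 0.065, 0.22, 0.16 and 0.10 with the correction as well. The cause of these shifts was not tested, beyond the values of DMSO replicate 1 given in the report.

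EZH2 turned negative with median scaling (-0.041), the correction (-0.051, also with a replicate block), without DMSO replicate 1 (-0.017) or etoposide replicate 1 (-0.00055; 0.074 at most with a library left out), in every fit that left out a library with the correction (-0.058, -0.045, -0.081 and -0.022) and on the last 500 bases (-0.14). DNMT3B did so with median scaling (-0.015), without etoposide replicate 1 (-0.010, at most 0.12 with another library left out, and -0.027 with the correction) and on the last 500 bases (-0.050). TET2 did so without DMSO replicate 1 (-0.0046, at most 0.67 with another left out, and -0.051 with the correction), as did TET1 with the correction (-0.010). HELLS, DNMT1, UHRF1, DNMT3A, SUZ12 and EED were positive under all 21 alternatives, DNMT3A at 0.0035 with voom. TPM moved the median of all genes from 0.036 to 0.10 and median scaling to -0.033. Same-numbered replicates did not deviate together (correlation 0.0133 across genes). With 2 libraries a group both pairs give the same value, so it is a single comparison. A replicate block left 0 genes at an adjusted p under 0.05, all 10 genes higher and 3 of them at an unadjusted p under 0.05. Of all 22185 genes, 2699 were under that unadjusted threshold in either direction.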

Other observations

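Other genes around DNA methylation were also read. Of 9 genes of the methyl donor cycle, which supplies the methyl group, 7 were higher and 2 lower in etoposide. The median was 0.097 on the log2 scale, 0.035 without DMSO replicate 1 (6 higher and 3 lower) and 0.0057 on the last 500 bases (5 higher and 4 lower). MAT2A, the enzyme that makes S-adenosylmethionine in dividing cells, gave 100.3 and 105 FPKM in DMSO and 125 and 119 in etoposide, and its groups did not overlap (log2 fold change 0.25, SE 0.0724, limma adjusted p = 0.342), at 0.22 without DMSO replicate 1. MTR, methionine synthase, gave 7.67 and 8.68 and then 10.6 and 9.43 (0.29, adjusted p = 0.405), and MAT2B, the regulatory subunit of MAT2A, was 0.22 higher (adjusted p = 0.502) and 0.040 without DMSO replicate 1. Of 8 readers of methylated CpG sites, 4 were higher and 4 lower, none at an unadjusted p under 0.05. ZBTB38, a reader of long transcript, gave 3.89 and 7.66 FPKM in DMSO and 6.93 and 7.67 in etoposide, again with DMSO replicate 1 low, ZBTB33 was 0.31 higher (adjusted p = 0.431) and MBD4, a glycosylase, 0.094 higher (adjusted p = 0.628).

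Of 12 genes of histone H3 lysine 9 methylation and its HP1 readers, 6 were higher and 6 lower, and the median was -0.025, or -0.041 without DMSO replicate 1. CBX5, which encodes HP1 alpha, gave 27.6 and 37.9 FPKM in DMSO and 46.1 and 47.5 in etoposide (log2 fold change 0.53, SE 0.151, limma adjusted p = 0.342), and was 0.31 higher without DMSO replicate 1. EHMT2, an H3K9 methyltransferase, gave 5.55 and 5.57 and then 5.11 and 4.06 (-0.28, adjusted p = 0.451), and SETDB2 gave 1.11 and 1.29 and then 1.35 and 1.63 (0.29, adjusted p = 0.491).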
